A study of Ovis aries with 24 samples.

Results

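Longissimus dorsi (LD), the long muscle of the back, was compared between newborn lambs and lambs of 11 to 12 weeks, in the 3 callipyge genotypes that do not show the trait. Callipyge is a mutation that enlarges the back and hind-limb muscles of lambs after birth when it comes from the sire alone. The genotypes used were CC (the mutation on both chromosomes), NC (CmatN, the maternal heterozygote) and NN (wild type). The newborn groups, coded T0, were sampled within 5 days of birth, and the older groups are coded T12. Each of the 6 groups has 2 technical arrays, so 12 of the 24 arrays and 6 of the 12 groups of the series entered the comparison. The paternal heterozygote CN (NCpat), which carries the trait, gave 4 further LD arrays that were kept out of it. Also kept out were 6 arrays of other muscles of NN lambs and 2 of a CN shoulder muscle, all at T12.

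The lambs came from a Dorset, Suffolk and Rambouillet cross-bred flock, and the labels' protocol describes 8 males, 4 per genotype, for a pair of genotypes only. How many animals stand behind an array, and whether T0 and T12 values of a genotype share animals, is unknown here. The p-values below therefore measure the spread among these group values, which may be that of single animals or of pools. The day of age of each T0 group is not given either, and cannot be told apart from its genotype. Some labels of T12 samples also carry the word birth, and the age code of the titles was used.

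Sheep muscle fibres form before birth, and growth after birth is mainly the enlargement of existing fibres, to which satellite cells (the resident stem cells) add nuclei by fusion. Developmental myosin heavy chains are replaced by adult fast and slow forms as the fibres mature. Matrix around the fibres is laid down quickly in the young animal, and insulin-like growth factors are main signals for growth before and after birth. In the ruminant, LD matures into a muscle of mostly fast, glycolytic fibres.

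Values are MAS5 signals (a background-corrected intensity per probe set) from a bovine GeneChip, and a group value is the mean log2 signal of its 2 arrays. The median signal was 50 to 52.8 on the T0 arrays and 53.5 to 57.9 on the T12 arrays. Paired technical arrays had an r of 0.974 to 0.988 over 4377 bright probe sets. The log2 ratio of 3′ to 5′ signal, a sign of RNA quality, was 0.131 to 0.307 at T0 and 0.043 to 0.246 at T12 for GAPDH, and −0.07 to 0.196 and 0.031 to 0.294 for actin. Of 8 skeletal fibre markers 7 were on the array, all were above the filter at both ages, and their summed signal was 182857 to 201261 at T0 and 202497 to 224577 at T12. The tissue label is thus borne out by high CKM, ACTA1 and MYH1. Both heart markers on the array, NPPA and TNNI3, lay under the filter.

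Between birth and T12 LD had lower signals of the developmental myosins MYH3 and MYH8, of the fetal growth factor IGF2 and of the collagen genes COL1A1 and COL11A1, and higher signals of major histocompatibility class II genes, of the atrophy-linked ubiquitin ligase FBXO32 and of the glycolytic regulator PFKFB3. Of 12302 probe sets tested, 1058 (8.60%) were higher at T12 and 1095 (8.90%) were lower (limma, Benjamini-Hochberg adjusted p under 0.05), which is 17.5% called in either direction. Taking the brightest probe set of each of 6428 gene symbols, 514 (8.00%) were higher and 746 (11.6%) lower, together 19.6%, and the median gene differed by −0.02 on the log2 scale. At least 2-fold differences were called for 275 probe sets (2.24%) higher and 303 (2.46%) lower. The 3 T12 values lay all above the 3 T0 values in 18.8% of tested probe sets and all below in 17.1%. Of the called probe sets 2148 (99.8%) moved the same way in all 3 genotypes, against 52.1% of those tested, a share that the paired test itself raises.

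**Figure D1:**
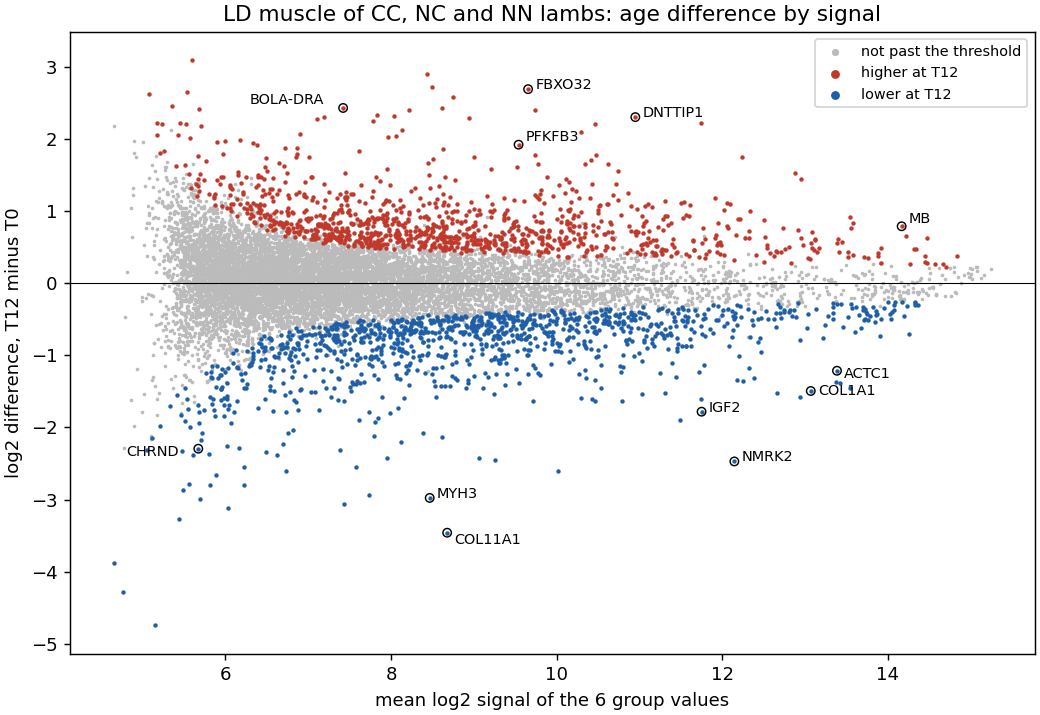
Each point is 1 of 12302 tested probe sets, placed by its mean log2 signal over the 6 LD group values (x) and its log2 difference T12 minus T0 (y). Red points are the 1058 called higher, blue the 1095 called lower (limma, adjusted p under 0.05), grey the rest, and named genes are circled. Calls lie on both sides of 0 at all signals, and the deepest falls among the circled genes are COL11A1 and MYH3.

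These calls depend on a shared estimate of variance. With only 2 residual degrees of freedom the fit borrowed spread from probe sets of like signal, and without that intensity trend no probe set passed in limma (3417 had an unadjusted p under 0.05, and the smallest adjusted p was 0.0523), while 3891 had one under 0.05 with it. Leaving out the NC pair left 784 calls. The filter keeps a gene that was bright at 1 age only, so counts over measured list members (on the array and past the filter) describe those genes and are read beside the shares of all genes. Centring each array on its median instead of the authors' scaling lowered every difference by 0.133, so that 28.5% of calls were higher against 49.1% here. Differences between 0 and 0.13 therefore change sign with the scaling.

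Developmental myosins had the largest falls among measured genes of the sarcomere lists. MYH3, the embryonic myosin heavy chain, had signals in CC, NC and NN of 346, 985 and 2877 at T0 and 128, 128 and 123 at T12. MYH8, the perinatal heavy chain, had 401, 702 and 1969 at T0 and 214, 179.9 and 171 at T12. In both genes the T0 groups spread widely, with NN highest and CC lowest, while the T12 groups lay close together below all of them. MYH3 fell by 2.98 ± 0.43 (SE of the limma fit on 3 genotype pairs, adjusted p = 0.00186) and MYH8 by 2.13 ± 0.37 (adjusted p = 0.00446) on the log2 scale, in which all differences below are given.

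Of the 13 measured embryonic and neonatal sarcomere genes 6 (46.2%) fell and 2 (15.4%) rose, against 11.6% and 8.00% of all genes. Their median was −0.53. ACTC1, the cardiac actin of fetal muscle, fell by 1.21 ± 0.24 (adjusted p = 0.00771), from 9646, 18225 and 24750.4 at T0 to 6448, 9995 and 5410.5 at T12 in CC, NC and NN. The NC value at T12 lay above the CC value at T0, so the ages overlapped for this gene even though each genotype fell. MYBPH (−0.61), the intermediate filament gene NES (−0.60) and TPM4 (−0.53) were the other called falls. The members that rose were MYH10, a non-muscle myosin, by 0.71 ± 0.16 and ACTA2, smooth muscle actin, by 0.46 ± 0.10. Without NC, and without NN, 4 fell and 0 rose, and 1 rose without replicate 1 of CC at T0.

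Of 11 measured fast-fibre genes 4 (36.4%) rose and 0 fell, against 8.00% and 11.6% of all genes. Their median was 0.19, and 2 rose without NC and 7 without CC. ACTN3, the fast-fibre alpha-actinin, had 7928, 7125 and 7008 at T0 and 11565, 10280.0 and 9080.0 at T12, with no overlap of the ages, and rose by 0.48 ± 0.08 (adjusted p = 0.00431). NEB, the thin-filament ruler nebulin, rose by 0.47 ± 0.09, MYOZ1 by 0.37 ± 0.07, and MYLK2, the skeletal myosin light chain kinase, by 0.90 ± 0.19. MYH1, a fast adult heavy chain, was at 0.12 and MYH7, the slow heavy chain, at 0.21, neither past the threshold. Of 9 slow-fibre genes MYL2 and TNNC1 rose by 0.29 ± 0.07 and 0.27 ± 0.08 and MYOZ2 fell by 0.50 ± 0.09, with a median of 0.06. These calls are 22.2% higher and 11.1% lower. The slow list had 0 rises after median centring, without NC, without NN, and without any 1 of replicate 1 of CC at T0, replicate 2 of NC at T12 and replicate 1 of NN at T12. It had 4 rises without CC, and 1 without any 1 of replicate 2 of NC at T0, replicate 1 of NN at T0, replicate 1 of CC at T12 and replicate 2 of NN at T12. After median centring 2 of its genes fell. MYH1 signals, 37159, 36569 and 31786 at T0, lay near the highest signals of the arrays, which were 32972 to 47010, and whether the range of the scanner narrows differences there was not tested.

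**Figure D2:**
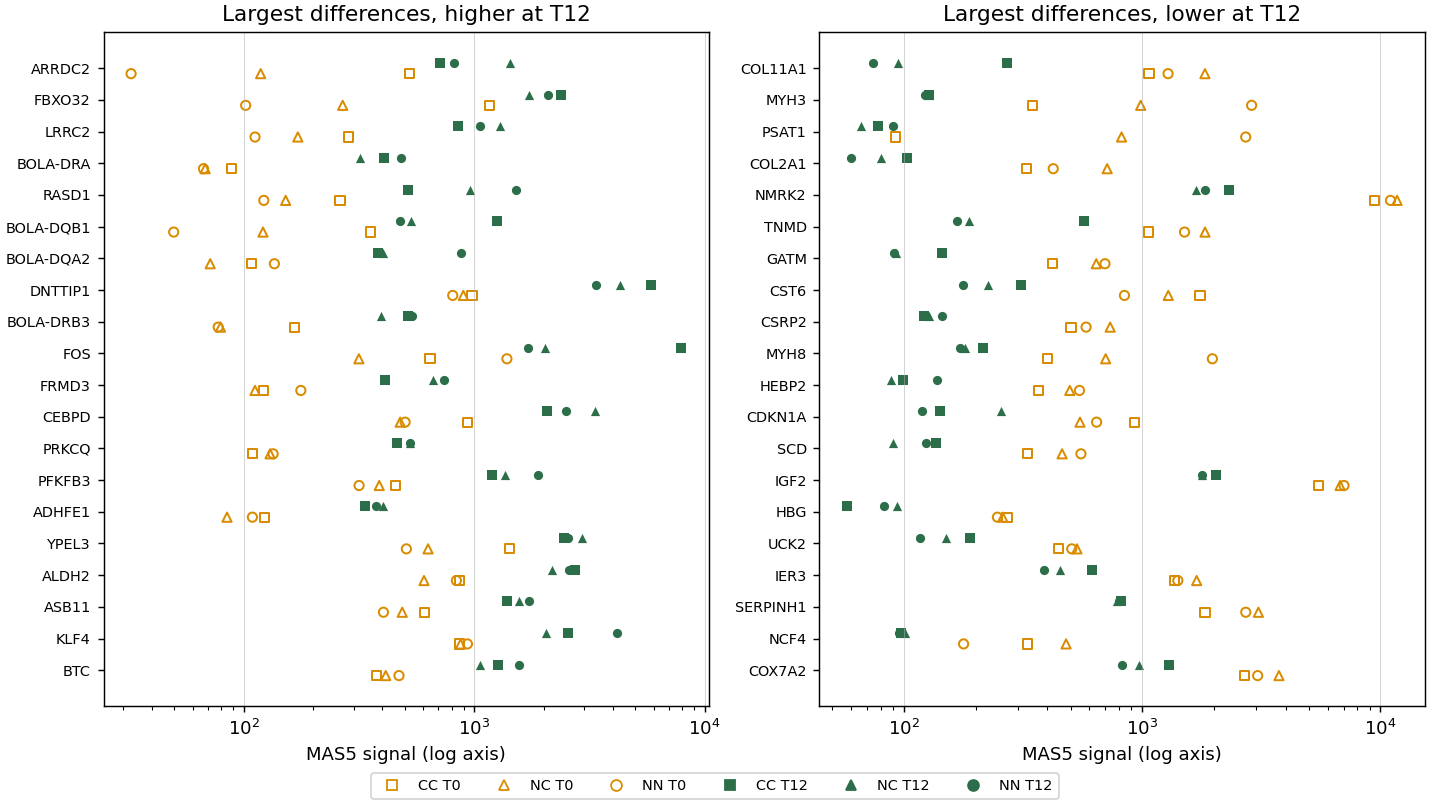
MAS5 signal (log axis) of the 20 genes with the largest called rise and the 20 with the largest called fall. Open orange symbols are the T0 and filled green symbols the T12 group values of CC (squares), NC (triangles) and NN (circles), each the mean log2 of 2 arrays. No gene has overlapping ages, which the choice of the largest calls makes likely. The ages also did not overlap for 998 of 1058 probe sets called higher and 1050 of 1095 called lower. ARRDC2, FBXO32, MYH3 and PSAT1 show the T0 groups far apart.

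IGF2, the fetal insulin-like growth factor and 1 of the 20 largest falls, had signals in CC, NC and NN of 5496, 6768 and 7029 at T0 and 2042, 1778 and 1773 at T12. Every T0 value was more than any T12 value, and the genotypes lay close at each age. IGF2 fell by 1.78 ± 0.12 (adjusted p = 9.03e-05), and its other tested probe set fell by 2.31 ± 0.46 (adjusted p = 0.00789). Of the 11 measured genes of the IGF axis 2 (18.2%) fell and 1 (9.09%) rose, with a median of −0.31. For so few genes these shares are near the 11.6% and 8.00% of all genes. IGFBP5, a binding protein, was the other fall at −1.93 ± 0.48, but its T12 values of 12.1, 53 and 28 include some below the median array signal, so the size is uncertain. IGFALS, which holds IGFs in the circulating complex, rose by 0.98 ± 0.24, the only rise of the list. That call was lost without CC, without NC, and without replicate 2 of NC at T0 or replicate 2 of NN at T0. IGF1 was at 0.46 ± 0.17 and did not pass (adjusted p = 0.0989), although its 3 T12 values lay above all T0 values.

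Of 15 measured genes known to be imprinted in mammals 5 (33.3%) fell and 1 (6.67%) rose, against 11.6% and 8.00% of all genes. Their median was −0.31, and 3 fell without NC and 8 without CC. MEST, a paternally expressed hydrolase-like gene, had 396, 726 and 1001 at T0 and 287, 216 and 237 at T12 and fell by 1.43 ± 0.26. NNAT (neuronatin) fell by 2.23 ± 0.30, again to T12 values near or below the array median. PLAGL1, a zinc-finger factor, fell by 0.81 ± 0.17, and GATM, which makes the creatine precursor guanidinoacetate, fell by 2.43 ± 0.25 from 418, 641 and 697 to 144, 92.8 and 90.4. GRB10, an adaptor that dampens insulin signalling, rose by 0.67 ± 0.19 (adjusted p = 0.0384) and was not called after quantile normalization or median centring. It was not called without CC, without NC, or without any 1 of replicate 2 of CC at T0, replicate 1 of NC at T0, replicate 1 of NN at T0, replicate 1 of CC at T12, replicate 2 of NC at T12 and replicate 2 of NN at T12 either. DLK1 at the callipyge locus was at 0.17 ± 0.22 (adjusted p = 0.633) and MEG3 at −0.75 ± 0.28 (adjusted p = 0.0984). Both means cover unlike genotypes. The DLK1 arrays of CC gave 1526 and 1265 at T0 and 2577 and 3081 at T12, while in NC and NN the T12 arrays lay below the T0 arrays. MEG3 in NN was 1361.5 and 1339 at T0 and 399 and 321.5 at T12. In CC and NC no MEG3 array of either age was below 12034.

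Of 15 measured myogenic regulators 2 (13.3%) fell and 1 (6.67%) rose, shares near the 11.6% and 8.00% of all genes. Their median was 0.01, or −0.13 after median centring, and 2 rose without CC, without replicate 1 of NC at T0 or without replicate 1 of NN at T12. MEF2C, a transcription factor of muscle differentiation, had 1500.1, 2258 and 3033 at T0 and 597, 826 and 758 at T12, with all T12 values under all T0 values, and fell by 1.59 ± 0.14 (adjusted p = 0.000249). TEAD4 fell by 0.69 ± 0.13, and ID1, an inhibitor of myogenic helix-loop-helix factors, rose by 0.98 ± 0.11. MYOD1 (−0.33), MYOG (−0.44) and myostatin, MSTN (0.01), did not pass. At the nerve-muscle junction CHRND, the delta subunit of the acetylcholine receptor, had 215, 84.2 and 79.4 at T0 and 37.5, 12.1 and 26.9 at T12 and fell by 2.29 ± 0.40 (adjusted p = 0.00459), with all T12 values below the array medians. It was the only called gene of the 5 measured there (20%), and CHRNE, the subunit of the adult receptor, was at −0.16 ± 0.13.

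Of 24 measured genes that make fibrillar collagen 13 fell and 0 rose, a share of 54.2% against 11.6% of all genes, with a median of −0.69. COL1A1, the main chain of type I collagen, had signals in CC, NC and NN of 13249.7, 16461 and 13822 at T0 and 7248, 4484 and 4148 at T12. All T12 values lay below all T0 values, and CC kept the most at T12. COL1A1 fell by 1.49 ± 0.16 (adjusted p = 0.000576) and COL1A2 by 0.74 ± 0.11, while COL3A1 was at −0.01 ± 0.09 (adjusted p = 0.938). The procollagen chaperone SERPINH1 had 1833, 3072 and 2719 at T0 and 814, 785 and 796 at T12 and fell by 1.64 ± 0.15 (adjusted p = 0.000296). LOX, which cross-links collagen, fell by 1.40 ± 0.19, and the matrix protein SPARC by 1.01 ± 0.14. Prolyl hydroxylase subunits P4HA1 (−0.63), P4HA2 (−0.90) and P4HB (−0.64) fell too. Without NC 9 members passed, and after median centring 14 did, all lower.

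The steepest of all named falls was COL11A1, a minor fibrillar chain of cartilage and young connective tissue, at −3.46 ± 0.36 (adjusted p = 0.000484). Its signals were 1067, 1832 and 1283 at T0 and 269.8, 94.2 and 74.2 at T12, and both other tested COL11A1 probe sets fell as well, by 1.36 ± 0.24 and 1.18 ± 0.33. COL2A1, the main cartilage collagen, fell by 2.55 ± 0.25 from 327, 712 and 423 to 103, 80.1 and 59.9, but its 3 other tested probe sets gave −0.20, 0.74 and 0.16 and did not pass. TNMD (tenomodulin), a tendon membrane protein, had 1063, 1834 and 1504 at T0 and 572, 187 and 167 at T12 and fell by 2.45 ± 0.38. The summed signal of 4 cartilage markers was 430.0 to 894.7 at T0 and 226.7 to 253.0 at T12. Of these, ACAN (−1.12) and MATN1 (0.60) did not pass and COL9A1 was under the filter. The part of cartilage or tendon tissue in these falls was not tested.

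Of 46 other matrix genes 10 (21.7%) fell and 1 (2.17%) rose, against 11.6% and 8.00% of all genes, with a median of −0.23. Without NC 4 fell, without NN 5 and without CC 16. Leaving out replicate 2 of NC at T12 gave 5, and 6 fell when replicate 2 of CC or replicate 1 of NC at T0, or replicate 1 of CC or replicate 2 of NN at T12, was left out. Elastin, ELN, had 291, 369 and 449.9 at T0 and 124, 164 and 149 at T12 and fell by 1.33 ± 0.16. Fibromodulin, FMOD (−1.25), COL12A1 (−1.21) and TGFBI (−1.09) were also lower. CCN1, a matricellular protein induced by growth factors and stretch, rose by 1.0 ± 0.13 from 375, 271 and 305 to 733, 552 and 608. DCN (decorin) was at −0.04, and the summed signal of the 5 fibroblast markers was 58879 to 66865 at T0 and 40773 to 51584 at T12. Of these 5 only the collagens COL1A1 and COL1A2 were called lower. COL3A1 (−0.01), DCN and PDGFRA (−0.23) did not pass. In bulk tissue fewer cells of a type and less RNA per cell cannot be told apart, here and for every gene below.

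**Figure D3:**
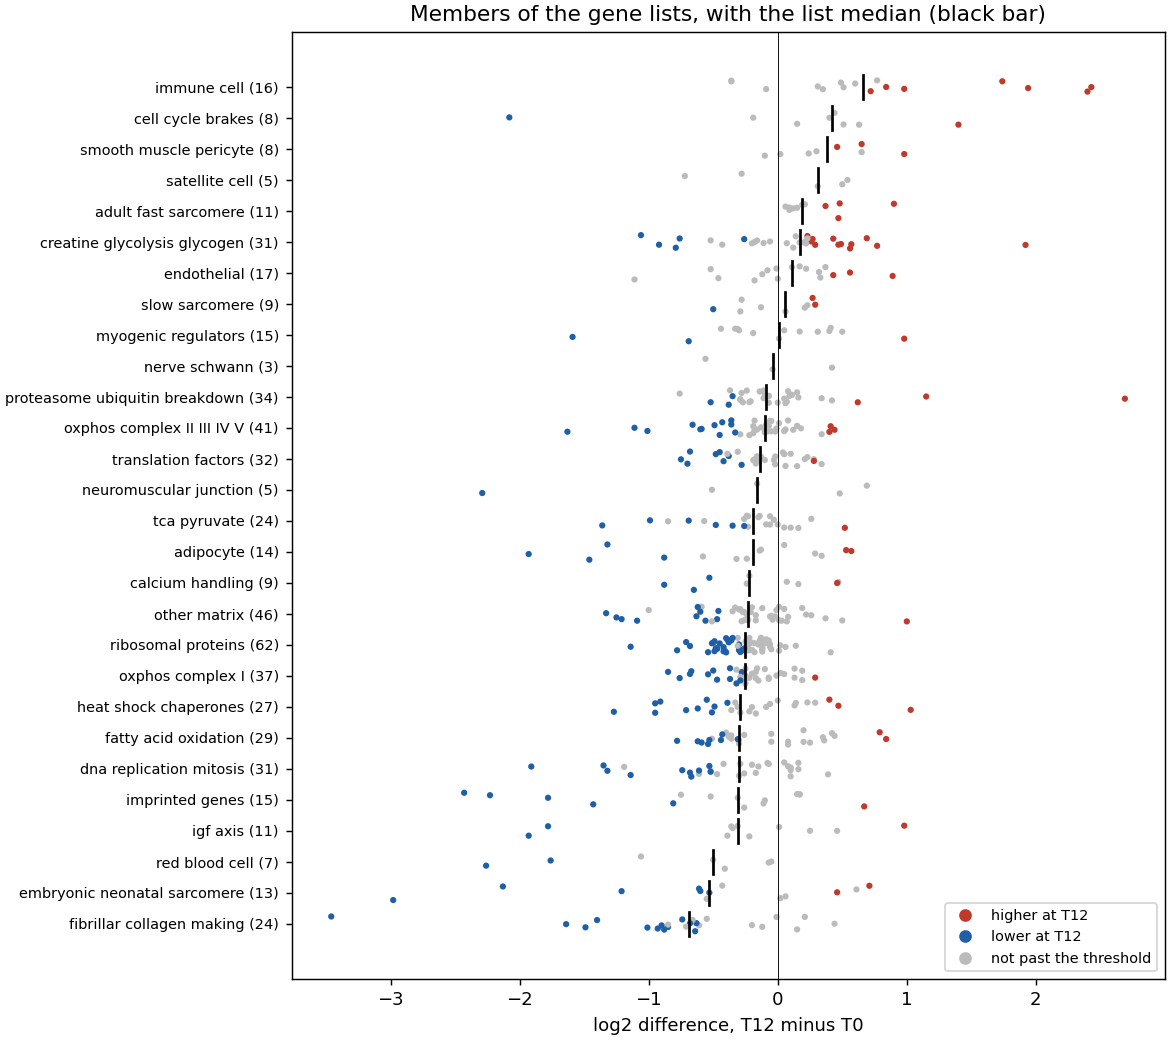
Log2 difference T12 minus T0 of each measured member of 28 gene lists (points; number measured in brackets), with the list's median as a black bar and lists sorted by median. Red members were called higher, blue lower, grey neither (limma, adjusted p under 0.05). Immune-cell genes have the highest median (0.66) and fibrillar collagen genes the lowest (−0.69).

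Of 16 measured immune-cell genes 7 rose and 0 fell, a share of 43.8% against 8.00% of all genes, with a median of 0.66. Only 16 of the 29 on the array passed the filter, which keeps genes bright at T12 alone, so the share can be too high. BOLA-DRA, the alpha chain of bovine class II DR, had 88.3, 68.1 and 66.9 at T0 and 406, 321 and 483 at T12. The lowest T12 value was more than 3 times the highest T0 value, and the rise was 2.43 ± 0.18 (adjusted p = 0.000168). BOLA-DQB1 (2.40) rose too, as did BOLA-DQA2 (2.34) and BOLA-DRB3 (2.24), class II genes outside the list. Their probe sets are of types that can share sequence within the gene family, and how sheep alleles bind these bovine probes was not tested, so levels of single genes and genotypes are uncertain. CD3E, a chain of the T-cell receptor complex, rose from 36.5, 41.1 and 46.6 to 122, 131 and 246, by 1.94 ± 0.26 (adjusted p = 0.00123). B2M, the class I light chain, rose by 0.84 ± 0.12 and the macrophage gene AIF1 by 0.72 ± 0.17. NCF4, a phagocyte oxidase subunit outside the list, fell by 1.63 ± 0.24 (adjusted p = 0.00191).

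The summed signal of the 5 immune markers on the array was 229.2 to 255.2 at T0 and 355.0 to 471.4 at T12. Of these CD14 (0.31) and CD68 (0.35) did not pass, and PTPRC and CD79A were under the filter. Among wall cells of vessels MYH11 rose by 0.98 ± 0.25, TAGLN by 0.65 ± 0.15 and ACTA2 by 0.46 ± 0.10. That makes 3 of 8 smooth muscle and pericyte genes (37.5%) higher, against 8.00% of all genes, and 0 lower. The smooth muscle marker sum was 3931 to 4412 at T0 and 5079 to 6804 at T12, and none of these 3 calls held without NC or without NN. Of 17 endothelial genes FLT1, a receptor of vascular endothelial growth factor, rose from 110.4, 105 and 122 to 208, 202 and 217, by 0.89 ± 0.16. EMCN (0.56) and CAV1 (0.43) rose too, while PECAM1 (0.17), CDH5 (−0.08) and VWF (0.37) did not pass. These 3 called rises are 17.6% of the list, against 8.00% of all genes, and 0 fell. The list's median was 0.11, with members from −1.11 to 0.89. Without NC, without NN or after median centring 1 endothelial gene rose, and without NN 1 also fell. The part of cell-type shares in these rises was not tested.

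Of 34 measured genes of the proteasome, ubiquitin ligases, calpains and cathepsins 3 (8.82%) rose and 3 (8.82%) fell, shares near the 8.00% and 11.6% of all genes, with a median of −0.09. FBXO32 (atrogin-1), the muscle ubiquitin ligase adaptor known from atrophy, had 1167, 269 and 102 at T0 and 2381, 1734 and 2085 at T12. At T0 the genotypes lay 11.4-fold apart with NN lowest, and at T12 only 1.37-fold. FBXO32 rose by 2.69 ± 0.45 (adjusted p = 0.00375) and by 2.72 ± 0.50 on its other probe set. CAST, which encodes the calpain inhibitor calpastatin, rose by 1.15 ± 0.17, and CAPN3, the muscle calpain, by 0.62 ± 0.11. The falls of the list were the proteasome subunits PSMB7 (−0.35), PSMC4 (−0.38) and PSMD14 (−0.52). Without NC, and without NN, 0 fell, while 5 fell without CC and 11 after median centring. A single fall was left without replicate 2 of NC or NN at either age.

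ARRDC2, an arrestin-domain protein, had 526, 118 and 32.5 at T0 and 712, 1429 and 822 at T12 and rose by 2.90 ± 0.59 (adjusted p = 0.0092), but its other probe set gave −0.28 and the call was lost without NC (2.55). CEBPD, a transcription factor, and RASD1, a small GTPase, rose by 2.09 ± 0.25 and 2.42 ± 0.38. KLF4, a zinc-finger factor, rose by 1.65 ± 0.16 from 864, 873 and 935 to 2556, 2047 and 4148. FOS, an immediate early gene, rose by 2.20 ± 0.46 (adjusted p = 0.01), with 643, 316 and 1387 at T0 and 7907, 2032 and 1719 at T12. Its NN step was 0.31, against 3.62 in CC, and the call was lost without NC (1.96).

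Of 31 creatine, glycolysis and glycogen genes 12 (38.7%) rose and 5 (16.1%) fell, against 8.00% and 11.6% of all genes, with a median of 0.17. PFKFB3, which makes the activator of phosphofructokinase, had 457, 387 and 317 at T0 and 1192, 1356 and 1884 at T12. All T12 values were more than 2 times any T0 value, and the rise was 1.92 ± 0.20 (adjusted p = 0.00045), with 1.58 ± 0.30 on its other probe set. PFKM, the muscle phosphofructokinase, rose by 0.57 ± 0.09 (adjusted p = 0.00272), from 10938, 8745 and 8042 to 14222, 14411 and 12336. PGM1, which links glycogen to glycolysis, rose by 0.56 ± 0.08, and PDK4, which holds back pyruvate oxidation, by 0.77 ± 0.14. Without NC 5 rose and 3 fell, without NN 5 and 4, and 3 fell without replicate 2 of CC at T12. After median centring 7 rose and 8 fell, so the direction of the list as a whole depends on the scaling.

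Of the 5 falls in this list 3 were isoforms other than the main muscle form, and their muscle partners did not fall. Enolase ENO1 fell by 0.79 ± 0.11 and the muscle enolase ENO3 rose by 0.23 ± 0.07. Phosphoglycerate mutase PGAM1 fell by 0.92 ± 0.15, and the muscle form PGAM2 rose by 0.26 ± 0.07. Lactate dehydrogenase LDHB, the heart-type subunit, fell by 1.06 ± 0.14 from 1176, 2096 and 1973 to 609, 784 and 1136, while LDHA rose by 0.29 ± 0.07. The muscle forms were already bright at T0, where the lowest of their signals was 18877, that of LDHA in NN. The rises of the muscle forms are small, and each is less by 0.133 after median centring. The lactate carrier SLC16A1 and the adenylate kinase AK1 were the other falls, at −0.76 and −0.26.

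Pairs of a broadly expressed and a muscle form were also present in cytochrome oxidase, the last complex of the respiratory chain. COX7A2, the broadly expressed form, had 2679.8, 3748 and 3051 at T0 and 1292, 968 and 820.0 at T12 and fell by 1.63 ± 0.17 (adjusted p = 0.00045), while the heart and muscle form COX7A1 was at −0.01 ± 0.08. COX6A1 fell by 0.66 ± 0.11 and its muscle partner COX6A2 rose by 0.40 ± 0.10. COX8A fell by 1.01 ± 0.16, and COX8B, the heart and muscle form, was at 0.34 ± 0.12 (adjusted p = 0.0844) with its 3 T12 values above all T0 values. These pairs were picked after their values were seen, and the difference within a pair was not tested.

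**Figure D4:**
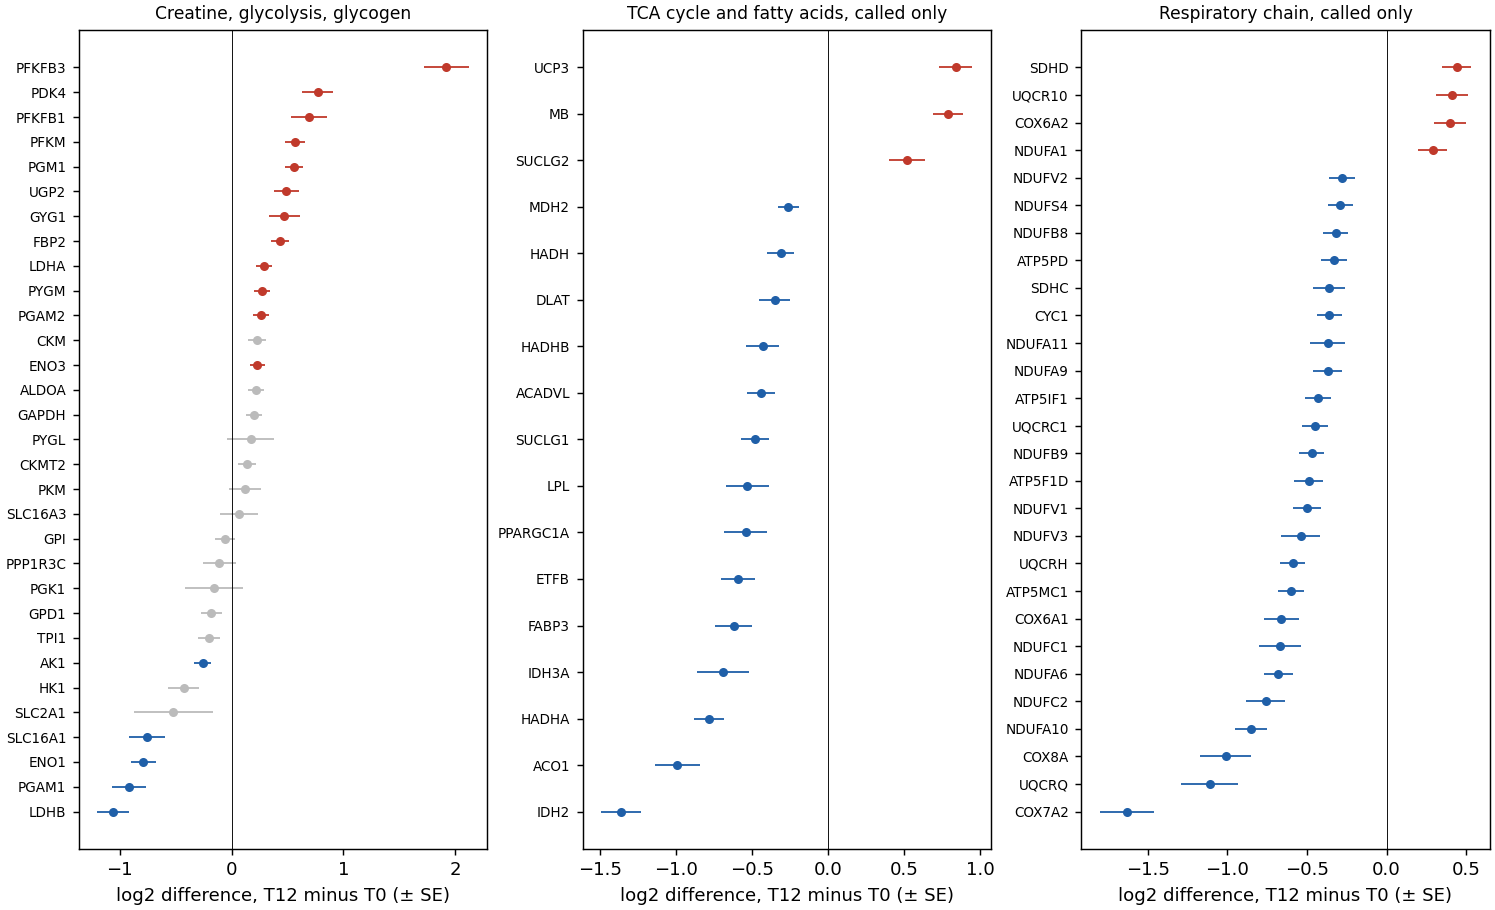
Log2 difference T12 minus T0 (point) with its SE (bar) from the limma fit. The left panel shows all 31 measured creatine, glycolysis and glycogen genes; the middle and right panels show only called genes of the TCA cycle and fatty acid lists and of the respiratory chain. Red is higher and blue lower at T12, grey neither. PFKFB3 has the largest rise and COX7A2 the largest fall.

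Respiratory chain genes were more often lower than higher, as were all genes (11.6% lower and 8.00% higher). In complex I 12 of 37 (32.4%) fell and 1 (2.7%) rose, with a median of −0.25. The largest fall was NDUFA10 at −0.85 ± 0.10 (adjusted p = 0.000866), from 2339.5, 2806 and 2327 to 1269, 1546 and 1331. In complexes II to V 12 of 41 (29.3%) fell and 3 (7.32%) rose, with a median of −0.10. UQCRQ of complex III was at −1.11 and the ATP synthase gene ATP5MC1 at −0.60, while SDHD of complex II rose by 0.44 ± 0.09. After median centring 25 and 19 members fell and 0 and 1 rose. Without NC 4 and 5 fell, and without NN 6 and 7. In complex I 7 fell when replicate 2 of NC at T12, or that of NN, was left out. The rise in complex I was NDUFA1 (0.29). In that list 1 gene rose without CC, without replicate 2 of CC at either age or without replicate 1 of NC at T0, and 0 with any other genotype or array of the fit left out. In complexes II to V 0 rose without NC, and 1 without NN or without replicate 2 of NC or NN at T12.

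Of 24 genes of pyruvate entry and the TCA cycle 6 (25%) fell and 1 (4.17%) rose, with a median of −0.19. Of all genes 11.6% fell and 8.00% rose. IDH2, the mitochondrial isocitrate dehydrogenase that makes NADPH, had 6328, 9152 and 8313 at T0 and 2596, 2719 and 4012 at T12 and fell by 1.36 ± 0.13 (adjusted p = 0.000301). Of 29 genes listed for fatty acid uptake, oxidation and related functions 8 (27.6%) fell and 2 (6.9%) rose, with a median of −0.30. HADHA, a subunit of the trifunctional protein of beta-oxidation, fell by 0.78 ± 0.10, and FABP3, the fatty acid carrier of muscle, by 0.62 ± 0.12. PPARGC1A, a coactivator of mitochondrial genes, fell by 0.54 ± 0.14 (adjusted p = 0.0294). The 2 rises were of list members outside fatty acid uptake and beta-oxidation themselves. MB (myoglobin), which binds oxygen, rose from 14531, 11530.1 and 16421 to 25288, 23913 and 23491, by 0.79 ± 0.10. UCP3, the muscle uncoupling protein, rose by 0.84 ± 0.11. The TCA rise, SUCLG2 (0.52), was lost without NC, without replicate 1 of CC at T0 and without replicate 2 of CC or NN at T12. Without NC 2 TCA and 1 fatty acid genes fell, without NN 3 and 4, and without CC 12 and 10, while 5 fatty acid genes fell without replicate 2 of NC at T12.

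Of 62 measured ribosomal protein genes 28 fell, 0 rose and 34 were not called, so that 45.2% fell against 11.6% of all genes, with a median of −0.25. RPL8 had 26041, 25505 and 23788 at T0 and 15561, 16705 and 13997 at T12 and fell by 0.71 ± 0.07 (adjusted p = 0.000484), and RPL7A fell by 1.14 ± 0.11. Most of the falls were small and ribosomal probe sets can also bind pseudogene copies. After median centring 47 fell, without NN 13, 18 when replicate 2 of NC at T12 was left out and 17 when replicate 2 of NN at T12 was. Of 32 translation factors 8 (25%) fell and 23 were not called, among them EIF4A1 (−0.75) and EEF2 (−0.42), and EIF4A2 rose by 0.28 ± 0.07. Without NC 2 fell and without NN 5. The rise was lost without NC, without NN, and without any 1 of replicate 1 of CC at T0, replicate 2 of NC at T12 and replicate 2 of NN at T12.

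Of 31 measured DNA replication and mitosis genes 10 fell, 0 rose and 21 were not called, with a median of −0.30. The share that fell was 32.3%, against 11.6% of all genes. The tubulin TUBB had 6564, 9747 and 9348 at T0 and 3204, 3727 and 3212 at T12 and fell by 1.32 ± 0.11 (adjusted p = 0.000195). STMN1, which destabilises microtubules, fell by 0.74 ± 0.12, and CKS2, a partner of cyclin-dependent kinases, by 1.35 ± 0.18. Only 31 of the 49 on the array passed the filter, PCNA was at −0.26 and did not pass, and 3 members fell without NC or without NN and 6 without replicate 2 of CC at T12. The cell-cycle inhibitors went both ways. CDKN1A (p21) had 926, 548 and 643 at T0 and 142, 256 and 119 at T12 and fell by 2.08 ± 0.26 (adjusted p = 0.00105), while CDKN2C (p18) rose from 81.7, 69.1 and 79.3 to 196, 184 and 227, by 1.40 ± 0.18 (adjusted p = 0.00112).

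Of 27 measured heat shock proteins and chaperones 10 (37%) fell, 3 (11.1%) rose and 14 were not called, against 11.6% lower and 8.00% higher of all genes. The list's median was −0.29, and 6 fell without NC. HSPA5, a chaperone of the endoplasmic reticulum, had 3499, 3996 and 4276 at T0 and 2184, 1880.5 and 2034 at T12 and fell by 0.95 ± 0.11 (adjusted p = 0.000853). HSP90B1 (−0.95), CALR (−0.91) and PDIA3 (−0.62), which fold proteins in the same compartment, fell, as did the small heat shock protein HSPB3 (−1.27) and the cytosolic HSP90AB1 (−0.51). The rises were the inducible cytosolic HSPA1A, from 797, 754 and 847 to 1489.5, 1740.0 and 1687, by 1.03 ± 0.12, HSPB1 by 0.47 ± 0.14 and HSP90AA1 by 0.40 ± 0.11. Only 1 rose after median centring, without NC, and without any 1 of replicate 1 of CC at T12, replicate 2 of NC at T12 and replicate 1 of NN at T12.

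The other genes among the 20 largest rises and falls are given here, and some, such as SCD and HBG, also belong to lists described below. DNTTIP1, a subunit of a histone deacetylase complex, had 978, 897 and 807 at T0 and 5865, 4307 and 3369 at T12 and rose by 2.30 ± 0.12 (adjusted p = 3.06e-05). NMRK2, the muscle nicotinamide riboside kinase of NAD synthesis, had 9436, 11738 and 11015 at T0 and 2314, 1682 and 1839 at T12 and fell by 2.47 ± 0.14 (adjusted p = 3.06e-05). For both genes the genotypes lay within 2-fold of each other at each age. PRKCQ, the theta form of protein kinase C, rose by 2.02 ± 0.14, BTC, a ligand of the epidermal growth factor receptor, by 1.61 ± 0.13, and the aldehyde dehydrogenase ALDH2 by 1.70 ± 0.11. LRRC2 (2.57), FRMD3 (2.12), ADHFE1 (1.83), YPEL3 (1.78) and the ubiquitin ligase adaptor ASB11 (1.66) complete the rises. CST6, a secreted cystatin, fell by 2.42 ± 0.13, although a dimmer CST6 probe set was at 1.13 without passing. CSRP2 (−2.20), HEBP2 (−2.12), the fatty acid desaturase SCD (−1.93), the fetal globin HBG (−1.76), UCK2 (−1.72), IER3 (−1.64) and NCF4 (−1.63) were the other falls. A further 18 tested probe sets belong to 15 of these 40 genes, and 14 of them moved with the named one, 13 past the threshold.

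Some named genes had genotypes far apart at T0, but a wider range at T0 was not general. The range of the 3 genotypes was wider at T0 for 22 of the 40 named genes. It was wider at T0 for 53.8% of called probe sets, near the 50.8% of those tested. PSAT1, an enzyme of serine synthesis, had 92.4, 818 and 2718 in CC, NC and NN at T0 and 77.7, 66 and 89.7 at T12. It fell by 2.93 ± 0.65 (adjusted p = 0.0131), with steps of −0.25, −3.63 and −4.92, so nearly all of the fall came from NC and NN, and it did not pass without NC (−2.59). The same order of T0 values, with CC nearest to the T12 level and NN farthest, was present in ARRDC2, FBXO32, BOLA-DQB1, MYH3 and MYH8. Together with FOS these are the 7 of the 40 genes whose genotypes lay more than 4-fold apart at T0, while 1, FOS, did so at T12. FOS genotypes lay 4.39-fold apart at T0 and 4.6-fold at T12. The share of all tested probe sets past 4-fold was not counted. The step was smallest in CC for 29 of the 40. Over all 2153 called probe sets CC had the smallest step in 1119, NC in 541 and NN in 493, with median absolute steps of 0.621, 0.771 and 0.8. These values chose the genes and carry no test, and days of age at T0 cannot be told apart from genotype. The 2 arrays of a group were close for FBXO32, at 1228 and 1110 in CC and 105.8 and 98.3 in NN at T0. They were further apart for ARRDC2 in NN at T0, at 20.8 and 50.7, and for BOLA-DQB1 in NC at T0, at 87.4 and 168.3.

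**Figure D5:**
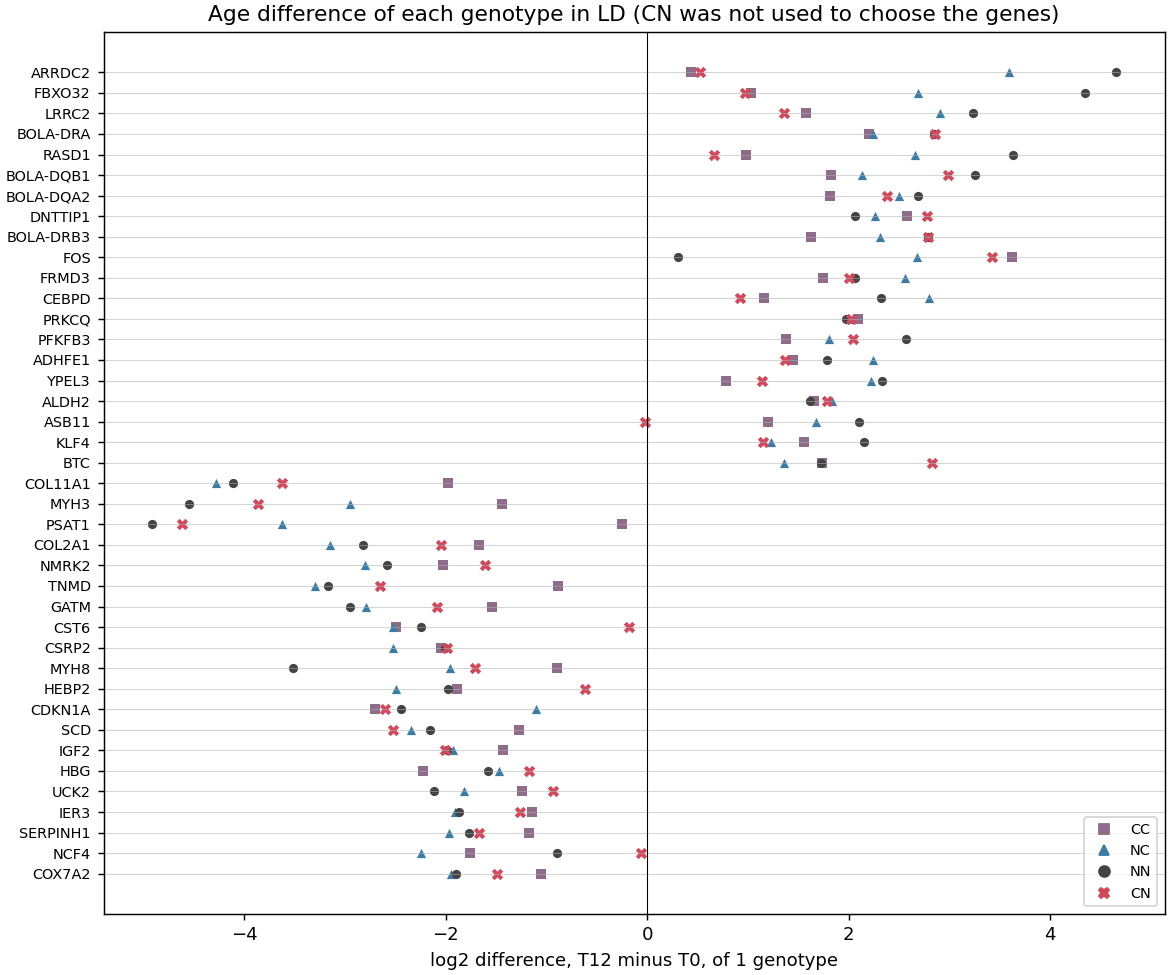
Log2 difference T12 minus T0 of each genotype in LD for the 40 named genes. Squares are CC, triangles NC and circles NN, which chose the genes, and crosses are CN, which did not. The CN value has the sign of the others for 39 genes, and CC lies nearest to 0 for 29.

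The LD arrays of CN lambs were not used to choose the called probe sets or the 20 named rises and 20 named falls. They share no sample with the age fit. Of the 2153 called probe sets 1935 (89.9%) moved the same way in CN, 942 of the 1058 higher and 993 of the 1095 lower, while the CN step was positive for 49.5% of all tested. The median absolute CN step over the called probe sets was 0.645. Of the 20 named rises 19 were positive in CN and of the 20 named falls 20 were negative. ASB11 was the exception, with 1291 at T0 and 1269.9 at T12, just under the lowest T12 value of the other genotypes at both ages. MYH3 in CN was 1956 at T0 and 134 at T12, IGF2 was 8019 at T0 and 1986 at T12, and FBXO32 was 1949 at T0 and 3826 at T12. At T0 CN lay between NC and NN for MYH3 and above CC for FBXO32, so it did not take the same place among the genotypes for both genes.

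The step of CN was also tested against that of the other 3 genotypes. No probe set passed in limma (0 of 12302, 0%), with 1283 at an unadjusted p under 0.05 and a smallest adjusted p of 0.0638. CN has a single value per age, whose spread is taken from the others. The genes of smallest p include CST6, with 321 at T0 and 282 at T12 in CN and a step that differed by 2.24 ± 0.27 (adjusted p = 0.0638). MUSTN1, a small muscle and skeletal protein, had steps of 0.93, 2.27 and 1.14 in CC, NC and NN and −1.55 in CN, a difference of −2.99 ± 0.41 (adjusted p = 0.103). MYL3, the slow essential light chain, had −0.71, 0.13 and −0.30 and −2.30, a difference of −2.0 ± 0.29 (adjusted p = 0.103). Under other settings between 0 and 283 probe sets passed.

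The 6 arrays of other NN muscles at T12 gave a further measure for the T12 state. In semitendinosus (ST), supraspinatus (SS) and the muscle coded SM, which the labels name in conflicting ways, all 3 values lay below the lowest T0 value of LD for 20 of the 20 named falls. They lay above the highest T0 value for 15 of the 20 rises. The exceptions were ARRDC2, BOLA-DQB1, CEBPD, DNTTIP1 and FOS. The LD T0 values helped to choose the named genes, so high counts are likely by that choice. The same share over all tested probe sets was not counted, and no test was made. For DNTTIP1 the signals were 3364 in SM, 5748 in ST and 898.1 in SS, so SS at T12 lay within the LD T0 range of 807 to 978. No newborn sample of these muscles entered, and the NN lambs may be the same animals as those of LD.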

How the data were processed

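Biotin-labelled cRNA from 5 µg of total RNA per sample was measured on bovine Affymetrix GeneChips, per the labels' protocols. The deposited values are intensity per probe set on a linear scale, made by the authors with MAS5 per the submitters' processing notes, with the version not given in the sources used here. The 2% trimmed mean was 200.084 to 200.093 on the 12 arrays used, so each array had been brought to 1 level. Bovine probes can bind sheep transcripts unequally, and the small number of arrays limits the precision.

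Of 24128 probe sets 112 controls were left out. Values under 1 were set to 1, log2 was taken, and the 2 technical arrays of a group, so named by the labels, were averaged. Probe sets above a signal of 49.6 (the median of all group values) in at least 3 of 6 groups were tested, 12302 in all. The test was limma 3.58.1 in R 4.3.3 (lmFit with genotype as a block, eBayes with intensity trend, prior degrees of freedom 7.67, two-sided), with Benjamini-Hochberg adjustment over all probe sets tested. The CN step was an interaction term over the 8 LD groups (2 residual degrees of freedom, prior 7.39). Scripts were tested on simulated data.

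Symbols came from GEO's platform annotation: 13292 probe sets had 1 symbol, 86 several and 10638 none. The 12302 tested include 8207 with 1 symbol, for 6428 different symbols, and 6105 of these are in RefSeq's sheep gene table (ARS-UI_Ramb_v3.0). No coordinates are given, and no sequences were used here. A gene is its probe set of highest mean signal. Named genes are the 20 largest rises and 20 largest falls among calls with 1 direction in all genotypes and a mean log2 signal of at least 8 at the higher age, members of 28 gene lists, and the 10 smallest p of the CN step. Members and lists were chosen with earlier results of these data known, so lists are described by counts and medians with no set test. Alternatives covered scaling, offset, filter, variance trend, blocks, samples fitted and each array or genotype left out.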

Additional observations from a re-analysis of the deposited data

How the results depend on the processing

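The 40 named genes kept their direction in all 995 alternative values. Of these 951 kept their side of the threshold, and the 44 that did not were all 40 without the intensity trend, PSAT1 with all 12 group values, and ARRDC2, FOS and PSAT1 without NC. The trend-free fit called 0 probe sets higher and 0 lower. Median centring called 1830 lower. Leaving out an array or a genotype gave 370 to 1180 higher and 414 to 1275 lower, the lowest without NC. For the CN step the 0 calls became 3 with median centring, 3 with an offset of 16, 3 with a filter of at least 1 group, 9 with no filter, and 0 to 247 with an array or genotype left out (247 without CC, 56 without NN, 24 without LD CN T12 replicate 2). Deviations of same-numbered arrays correlated by 0.019 to 0.072 between T0 and T12 of a genotype, and by −0.017 to 0.145 over all 15 pairs of groups. Whether single genes moved with the array number within an age was not tested. With the array number as a replicate block 3100 probe sets were called for age and 283 for the CN step. That fit takes arrays as samples, with consensus correlations of 0.0513 and −0.00113, so its counts can be too high.

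Of 699 list medians under alternatives 619 moved by less than the spread among genotypes, 73 moved further and 7 changed sign. With median centring the medians became 0.06 for fast and −0.66 for embryonic sarcomere genes, −0.36 for calcium handling, −0.29 for the neuromuscular junction, −0.13 for myogenic regulators, −0.44 for the IGF axis, −0.44 for imprinted genes, 0.04 for creatine and glycolysis, −0.38 for complex I, −0.24 for complexes II to V, −0.32 for the TCA cycle, −0.43 for fatty acid oxidation, −0.44 for DNA replication, −0.38 for ribosomal proteins, −0.28 for translation factors, −0.22 for the proteasome and 0.18 for satellite cells, by construction a common shift. With quantile normalization they were 0.07 for fast sarcomere, 0.11 for glycolysis, −0.05 for complexes II to V, −0.22 for fatty acid oxidation and 0.19 for satellite cells. An offset of 16 gave −0.43 for embryonic sarcomere genes. A mean signal above 200 gave −0.08 for calcium handling, −0.33 for the IGF axis, −0.53 for DNA replication, 0.15 for cell-cycle brakes and −0.07 for red-cell genes, with fewer genes in each.

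Leaving out an array or genotype gave medians of 0.15 to 0.27 for fast sarcomere, −0.25 to −0.10 for calcium handling, 0.27 to 0.52 for cell-cycle brakes, 0.14 to 0.23 for glycolysis, −0.41 to −0.22 for DNA replication, −0.58 to −0.39 for embryonic sarcomere, −0.30 to −0.23 for fatty acid oxidation, −0.85 to −0.65 for fibrillar collagen, −0.34 to −0.14 for the IGF axis, −0.23 to −0.08 for the neuromuscular junction, −0.17 to 0.09 for myogenic regulators and −0.07 to 0.59 for satellite cells. The myogenic median was negative without CC (−0.06), LD CC T0 replicate 2 (−0.09), LD CC T12 replicate 1 (−0.17), LD NN T12 replicate 1 (−0.11) or LD NC T12 replicate 1 (−0.08), and that of satellite cells without LD NC T12 replicate 1 (−0.07). The cause of other changes was not tested. Sizes of falls to signals below about 50 are uncertain.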

Other observations

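Of 14 measured adipocyte genes 4 (28.6%) fell and 2 (14.3%) rose, against 11.6% and 8.00% of all genes, with a median of −0.19. The rises, ADIPOR2 (0.57) and LIPE (0.53), were both lost after median centring, without NC, without NN, and without any 1 of replicate 1 of NC at T0, replicate 1 of CC at T12, replicate 2 of NC at T12 and replicate 2 of NN at T12. A single rise was left without any 1 of replicate 1 of CC at T0, replicate 2 of NC at T0, replicate 1 of NN at T0, replicate 2 of CC at T12, replicate 1 of NC at T12 and replicate 1 of NN at T12. Without NC, and without NN, 2 fell. SCD, the desaturase that makes monounsaturated fatty acids, had 329.9, 461 and 553 at T0 and 136, 90.1 and 124 at T12 in CC, NC and NN and fell by 1.93 ± 0.21 (adjusted p = 0.000557). FABP4, the fatty acid carrier of fat cells, had 208, 597 and 666 at T0 and 112, 292 and 160.2 at T12 and fell by 1.32 ± 0.22, with CC the lowest genotype at both ages, and ACLY fell by 0.88 ± 0.20. ADIPOQ, made by mature fat cells, was at −0.32 ± 0.22 and did not pass, and LEP lay under the filter. The summed adipocyte markers were 368.0 to 897.4 at T0 and 237.2 to 508.0 at T12. Both falls among 7 red-cell genes (28.6%) were globins, HBG at −1.76 ± 0.20 and HBB at −2.26 ± 0.44, with HBA at −0.41 ± 0.26 not passing. The summed red-cell markers were 205.1 to 313.0 at T0 and 114.2 to 139.5 at T12.

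Of 9 measured calcium-handling genes 3 (33.3%) fell and 1 (11.1%) rose, against 11.6% and 8.00% of all genes. CACNB1, the beta subunit of the calcium channel that triggers contraction, had 3902, 4308 and 4087 at T0 and 2438, 2021 and 2256 at T12 and fell by 0.88 ± 0.11 (adjusted p = 0.000945). HRC, a calcium-binding protein of the sarcoplasmic reticulum, fell by 0.65 ± 0.10, and PLN, the inhibitor of the slow-fibre calcium pump, rose by 0.46 ± 0.12 (adjusted p = 0.0241), a call that was lost after median centring, without NC, and without any 1 of replicate 2 of NN at T0, replicate 2 of CC at T12 and replicate 2 of NC at T12. Without CC 3 of these genes rose. ATP2A1, the fast-fibre pump, was at 0.07 ± 0.07. Of 5 satellite cell genes and 3 nerve and Schwann cell genes 0 passed in limma (4 at an unadjusted p under 0.05), with medians of 0.31 and −0.04. A satellite cell gene was called higher without replicate 1 of CC at T0 and lower without NN, and a nerve gene was called higher without replicate 2 of NN at T0. Of the satellite cell markers MYF5 alone is on the array, under the filter.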
